A study of Mus musculus with 18 samples.

Results

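The cytosolic glutamate tRNAs were followed through Hydro-tRNA-seq of the mouse hippocampus, with the 5′-end reads set against the 3′-end reads for each anticodon. The members were all entries of the count table whose name starts with tRNA-Glu-, mature and precursor, with the antisense entries left out. They were 78 of the 3574 entries of the table. Of these, 24 (of 852) described mature tRNAs and 54 (of 1005) precursors. The mature entries belonged to 6 of the 213 mature tRNAs, which are tRNA-Glu-CTC-1, CTC-2 and CTC-5 and tRNA-Glu-TTC-1, TTC-2 and TTC-3, and the precursor entries to 18 of the 335 pre-tRNA loci, 10 with the CTC anticodon and 8 with TTC.

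The animals were male WT mice on a B6SJL background and male 5xFAD mice, an Alzheimer's disease model that carries human transgenes under the neuronal Thy-1 promoter. They were 6 months old when CA1 and the dentate gyrus of both sides were injected, and the tissue was taken 4 weeks later. The vector, meant for neurons, was either rAAV2/8-H1-shControl-RSV-GFP (shCT) or its counterpart rAAV2/8-H1-shRTP801-RSV-GFP (shRTP801). RTP801 is the stress-responsive protein encoded by Ddit4, and the virus was meant to silence it only in the neurons it reaches, while the RNA came from the whole tissue. Among WT mice, 5 received shCT and 4 received shRTP801. Of the 5xFAD mice, 3 received shCT and 6 shRTP801. Each mouse gave 1 library, and no mouse was left uninjected. Since the tissue is a mixture of cells, fewer cells of a type and less RNA per cell cannot be told apart. The silenced gene is not an entry of this small RNA table, and its knockdown was not checked here.

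Glutamate tRNAs carry glutamate to the ribosome, where the CTC anticodon reads the GAG codon and the TTC anticodon, whose first base is a modified uridine, reads mainly GAA. tRNAs that differ in sequence but share an anticodon are isodecoders, and each may be encoded at several genomic loci whose transcripts are trimmed at both ends before use. Under stress, tRNAs can be cut in the anticodon loop, and 5′ fragments of glutamate tRNAs are among those often described. Such fragments are shorter than a whole tRNA. Here RNA of 60 to 100 nucleotides, the size of whole tRNAs, was first cut from a gel and only then broken by alkaline hydrolysis, so that most fragments sequenced were made in the protocol and the read types describe which parts of the tRNAs were recovered. A read is counted as full-length if it covers both ends of the mature tRNA, as a 5′-end read if it reaches only the 5′ end, as a 3′-end read if it reaches only the 3′ end, and as internal otherwise. All values below are reads recovered from the deposited normalized counts. The balance of a tRNA is the log2 of its 5′-end reads over its 3′-end reads, each plus 1, so that a balance below 0 means more 3′-end reads.

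Counted over all entries, the libraries held 18527898 to 89228299 reads. With near-identical entries outside the cytosolic tRNAs counted once, the libraries held 18126375 to 34488923 reads, and the percentages of a library rest on these numbers. In 3 libraries, WT shCT mouse 5, WT shRTP801 mouse 4 and 5xFAD shRTP801 mouse 7, mature tRNAs took 98.7%, 98.0% and 98.0% of the reads, against 31.9% to 85.8% in the other 15, and mitochondrial tRNAs were nearly absent. These libraries stood apart, none of them was a 5xFAD shCT library, and results are given with and without them. As for the tissue, the neuronal tRNA-Arg-TCT-4 and the listed small RNAs of brain and neurons together had reads in 18 of 18 libraries and those of oligodendrocytes in 16, while the table has no entry for the listed microRNAs of liver, muscle or blood, so that admixture of those tissues could not be checked. Of the brain and neuron entries, only the 3′-end reads of tRNA-Arg-TCT-4 were present in all 18 libraries. The brain-specific Snord116 copies and Mir124 precursors had reads in at most 15 libraries, and Mir9-1 in 4. For oligodendrocytes, Mir219a-2 had reads in 16 libraries and Mir338 in 7.

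Both glutamate families were abundant, and Glu-TTC was read more than Glu-CTC in 18 of 18 mice. Among the 49 families with enough reads, Glu-TTC ranked number 8 and Glu-CTC number 10 by the median share of the mature tRNA reads, with medians of 3.55% and 2.03%. Glu-CTC made up 2.23%, 1.67%, 1.42%, 2.27% and 2.69% of the mature reads in WT shCT mice 3, 5, 6, 11 and 15, and 1.84%, 1.87%, 2.55% and 3.45% in WT shRTP801 mice 4, 10, 17 and 21. It made up 2.10%, 1.96% and 4.02% in 5xFAD shCT mice 1, 16 and 18, and between 1.47% and 2.32% (median 1.83%) in the 6 5xFAD shRTP801 mice. The groups overlapped, and 5xFAD shCT mouse 18 was the highest of all 18.

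Glu-TTC took 3.39%, 6.35%, 2.69%, 4.22% and 3.65% of the mature reads in the same WT shCT mice and 5.06%, 2.67%, 4.28% and 4.22% in the WT shRTP801 mice. Its share was 2.81%, 3.45% and 5.34% in the 5xFAD shCT mice and ran from 2.37% to 5.86% (median 2.82%) in the 5xFAD shRTP801 mice. In each of the 3 groups that held a library standing apart, that library had the highest Glu-TTC share. Without those libraries the highest share was 5.34%, in 5xFAD shCT mouse 18, which was also the highest for Glu-CTC. The number of Glu-TTC reads for each Glu-CTC read was 1.54 ± 0.222 (SD, n = 15) in the other libraries and 2.76 to 3.81 in the 3 that stood apart. The Wilson 95% intervals of these single-mouse shares reached at most 0.0134 percentage points to either side. They cover counting error only, which was far smaller than the spread between mice.

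Most reads of both families came from the 3′ end. For Glu-CTC, 3′-end reads made up 46.4% to 80.6% of the family reads (median 69.2%), 5′-end reads 13.1% to 26.8% (median 16.9%), internal reads 0.290% to 29.3% (median 13.0%) and full-length reads at most 1.75%. For Glu-TTC, the 3′-end share was higher, 71.3% to 97.1% (median 87.1%), and the 5′-end share lower, 1.36% to 9.48% (median 5.64%), with at most 19.8% of internal reads (median 6.03%) and at most 1.75% of full-length reads. The internal reads of 2 Glu-TTC isodecoders had near-identical counts, and counted once they brought the internal share of Glu-TTC to a median of 3.27% and at most 11.3%, the 3′-end share to 78.8% to 97.8% and the 5′-end share to 1.37% to 9.92%. A Glu-CTC read was more often a 5′-end read than a Glu-TTC read in every mouse. The widest Wilson 95% interval of these end shares was 0.228 percentage points to either side.

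**Figure D1:**
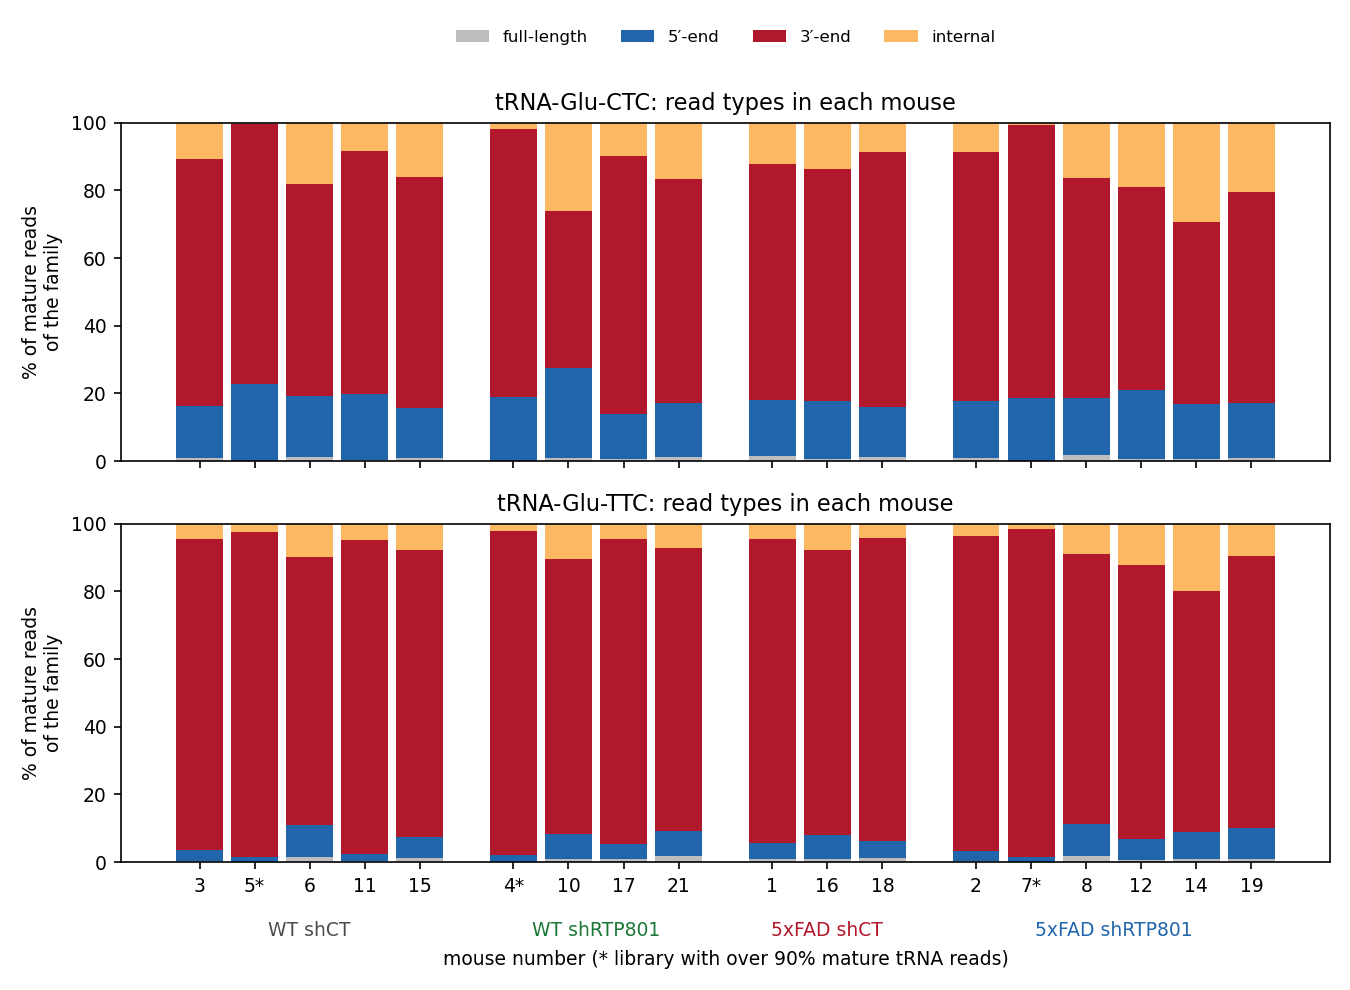
Read types of tRNA-Glu-CTC (top) and tRNA-Glu-TTC (bottom) as a percentage of the mature reads of the family, 1 bar for each of the 18 mice, ordered by group, with the libraries of over 90% mature tRNA reads marked by an asterisk. The 3′-end reads fill 46.4% to 80.6% of the Glu-CTC bars and 71.3% to 97.1% of the Glu-TTC bars, and internal and full-length reads are lowest in the marked libraries.

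In the 3 libraries that stood apart, full-length and internal reads were scarce. Full-length reads made up at most 0.140% of the Glu-CTC reads and 0.108% of the Glu-TTC reads there, against at least 0.345% and 0.296% in each of the other 15. Internal Glu-CTC reads made up 0.290% to 1.79% there, against 8.44% to 29.3%. Glu-CTC had 18.8% to 22.7% of 5′-end reads in these libraries, within the range of the other mice, while Glu-TTC had its lowest 5′-end shares there, 1.36% to 1.83%.

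The balance was -2.03 for Glu-CTC and -3.93 for Glu-TTC (medians, n = 18), and there were more 3′-end than 5′-end reads in 18 of 18 mice for both. Expressed as reads, Glu-CTC had a median of 4.08 3′-end reads for each 5′-end read (range 1.73 to 5.80) and Glu-TTC 15.3 (range 8.42 to 71.4). Among 49 families ordered from the most 5′-rich, Glu-CTC was number 8 and Glu-TTC number 14, and the whole range ran from 4.69 for Cys-GCA to -14.35 for Thr-CGT. Glu-CTC was also the most even of these families between mice, with an SD of 0.37 over the 18 libraries, the lowest of the 49. Glu-TTC, with an SD of 1.04, was number 23 in that order. The neighbours of Glu-CTC in the order of medians, Gln-TTG (-1.66) and Gly-GCC (-2.09), lay within its spread, as did Lys-TTT (-3.36) and Arg-TCT (-4.76) for Glu-TTC.

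**Figure D2:**
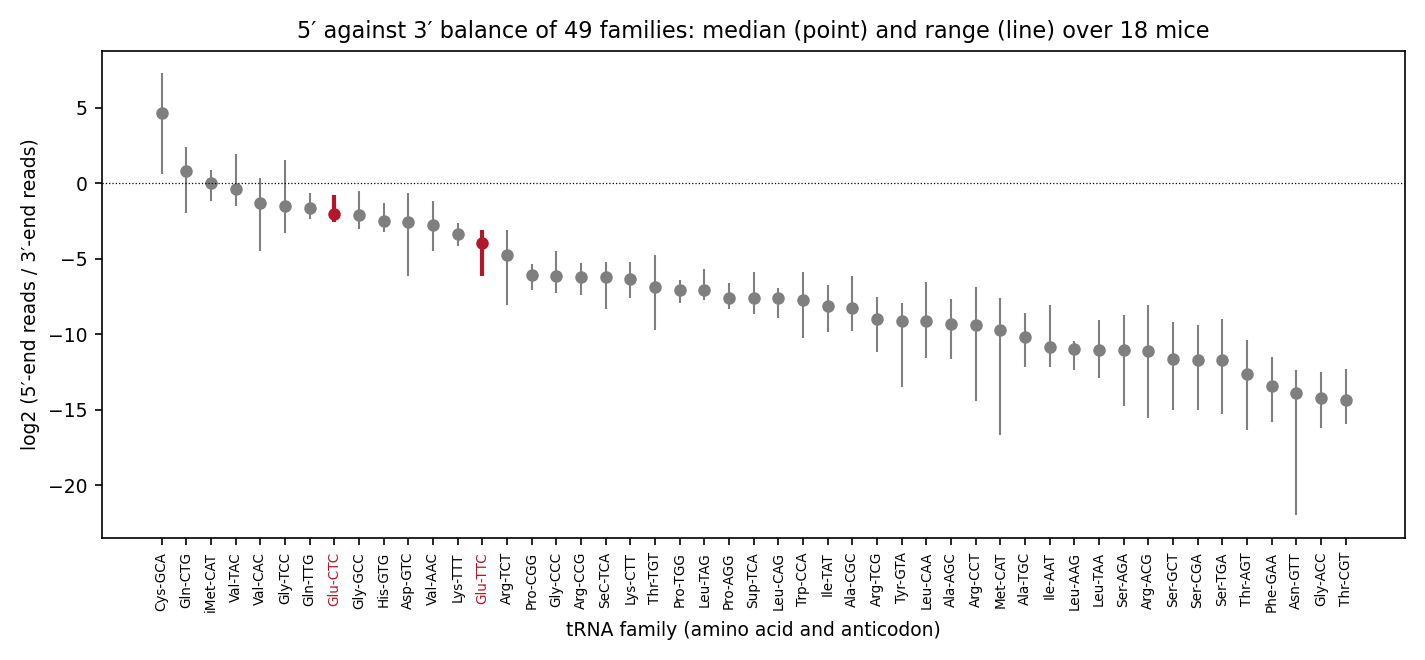
Balance, the log2 of 5′-end over 3′-end reads, of the 49 tRNA families with enough reads, ordered by the median over 18 mice (point) with the range over mice (line), and the glutamate families in red. Glu-CTC (-2.03) and Glu-TTC (-3.93) lie in the upper part of the order, and the line of Glu-CTC is short.

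The question of the design is whether the 5xFAD genotype or the silencing of RTP801 moved this balance, and no difference passed the test for either family. The Glu-CTC balance was -2.24, -1.76, -1.79, -1.89 and -2.21 in WT shCT mice 3, 5, 6, 11 and 15 and -2.07, -0.79, -2.54 and -2.05 in WT shRTP801 mice 4, 10, 17 and 21. It was -2.08, -2.01 and -2.35 in the 5xFAD shCT mice 1, 16 and 18, and between -2.12 and -1.57 (median -1.94) in the 6 5xFAD shRTP801 mice. The 4 groups overlapped, and WT shRTP801 mouse 10 alone lay above -1.57 and set the SD of its group, 0.75, against 0.18 to 0.23 in the other groups.

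For Glu-TTC the balance was -4.85, -5.96, -3.07, -5.45 and -3.74 in the WT shCT mice and -5.72, -3.48, -4.34 and -3.47 in the WT shRTP801 mice. In the 5xFAD shCT mice it was -4.26, -3.60 and -4.11, and in the 5xFAD shRTP801 mice it ran from -6.16 to -3.08 (median -3.45). The lowest value of each of the 3 groups with a library that stood apart came from that library, and the 3 values together, -6.16 to -5.72, were the lowest of the 18. WT shCT mouse 11 (-5.45) and 5xFAD shRTP801 mouse 2 (-4.97) were the next lowest, although mature tRNA took only 82.4% and 57.0% of their reads.

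**Figure D3:**
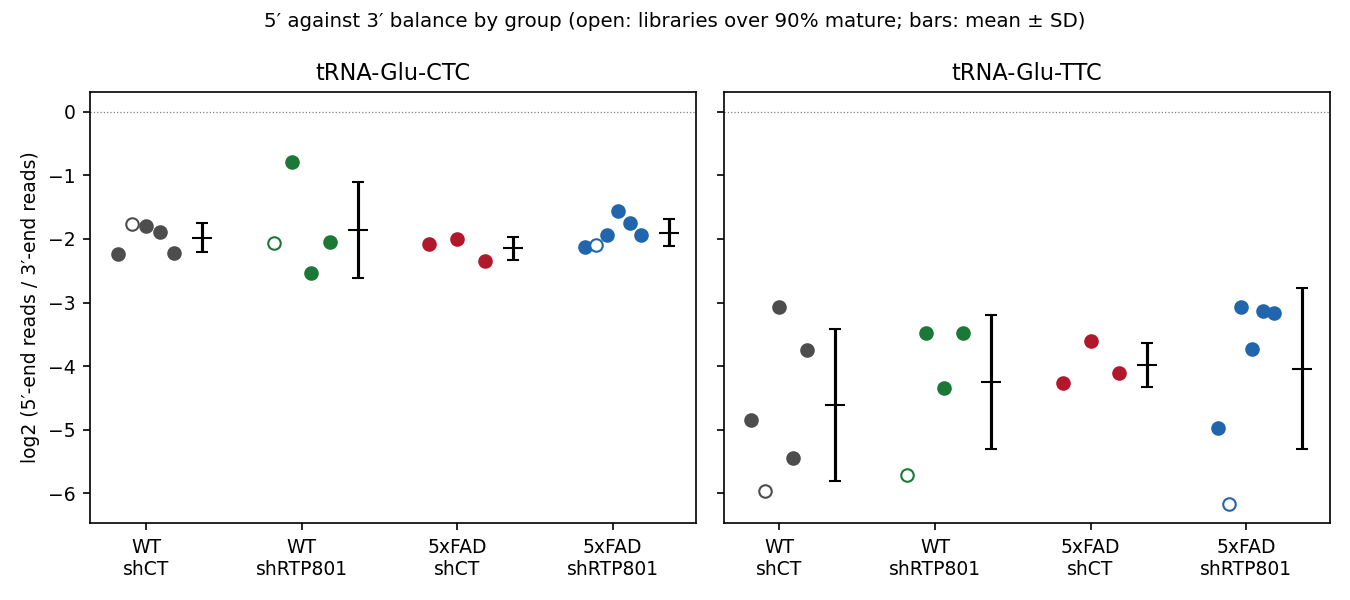
Balance (log2 of 5′-end over 3′-end reads) of tRNA-Glu-CTC (left) and tRNA-Glu-TTC (right) in each mouse by group, with the group mean ± SD beside the points and open circles for the 3 libraries of over 90% mature tRNA reads. The groups overlap in both panels, and the open circles are the lowest Glu-TTC values of their groups.

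In the limma fit over all 49 families, the Glu-CTC balance of 5xFAD shCT minus WT shCT mice differed by -0.17 ± 0.38 (SE; 95% interval -0.97 to 0.64; limma adjusted p = 0.781). That of Glu-TTC differed by 0.63 ± 0.78 (SE; interval -1.02 to 2.28; limma adjusted p = 0.607). Silencing RTP801 in 5xFAD mice was accompanied by a Glu-CTC difference of 0.24 ± 0.37 (SE; interval -0.54 to 1.02; limma adjusted p = 0.887) and a Glu-TTC difference of -0.05 ± 0.76 (SE; interval -1.65 to 1.55; limma adjusted p = 0.968). In WT mice the same differences were 0.12 ± 0.35 (interval -0.62 to 0.86; limma adjusted p = 0.866) and 0.37 ± 0.72 (interval -1.15 to 1.88; limma adjusted p = 0.818). Between the genotypes under shRTP801 they were -0.04 ± 0.34 (interval -0.76 to 0.67; limma adjusted p = 0.989) and 0.21 ± 0.69 (interval -1.25 to 1.67; limma adjusted p = 0.985). The interaction, which asks whether silencing acted differently in the 2 genotypes, was 0.12 ± 0.51 for Glu-CTC and -0.42 ± 1.05 for Glu-TTC (limma adjusted p = 0.888 and 0.812). These intervals are wide, and for Glu-TTC they include more than a doubling of the ratio in both directions.

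Called families were 0 of 49 (0%) in each of the 5 comparisons of the balance at an adjusted p under 0.05, and 3, 1, 3, 2 and 5 of 49 had an unadjusted p under 0.05 (6.12%, 2.04%, 6.12%, 4.08% and 10.2%), none of them a glutamate family. Here and below, values of 5 comparisons are in the order genotype with shCT, silencing in 5xFAD, silencing in WT, genotype with shRTP801, interaction. Without the 3 libraries that stood apart, Glu-TTC differed by 0.29 for 5xFAD shCT minus WT shCT (limma adjusted p = 0.800). For silencing in 5xFAD mice the Glu-TTC difference then changed sign, to 0.37 (limma adjusted p = 0.807), and 5xFAD shRTP801 mouse 7 alone decided this. The Glu-CTC differences without those libraries were -0.11 and 0.28. Two-sided exact permutation tests of the same group means, adjusted over 24 tests of family values, gave no adjusted p below 0.929. With 3 to 6 mice in a group, the smallest p these tests can give is 0.0179 for 5xFAD shCT against WT shCT, and 0.0119, 0.00794 and 0.00476 for the other comparisons. Each group of mice enters a pair of these comparisons, so that the comparisons are not independent. The WT shCT mice are the controls in both of theirs, and the 5xFAD shCT mice only for silencing.

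The difference between the anticodons was also set against the groups. The balance of Glu-CTC exceeded that of Glu-TTC in 18 of 18 mice, by 1.13 to 4.20 (median 1.98), that is by a factor of over 2 in each. With shCT, the excess was 2.64 ± 1.26 (SD, n = 5) in WT and 1.84 ± 0.30 (SD, n = 3) in 5xFAD mice. With shRTP801, it was 2.39 ± 0.99 (SD, n = 4) in WT and 2.13 ± 1.15 (SD, n = 6) in 5xFAD mice. It was 3.65 to 4.20 in the 3 libraries that stood apart and 1.13 to 3.56 in the others. The log2 of the Glu-CTC over Glu-TTC mature reads was -0.96 ± 0.58 (SD) in WT and -0.55 ± 0.23 (SD) in 5xFAD mice with shCT, and -0.75 ± 0.51 (SD) and -0.80 ± 0.51 (SD) with shRTP801. For neither measure did a difference between groups pass the test (8 two-sided exact permutation tests, adjusted p = 0.880 to 0.890). The largest difference of the excess was -0.79, between 5xFAD shCT and WT shCT mice (exact permutation test, unadjusted p = 0.357), and it was -0.40 without the 3 libraries.

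Within the families the isodecoders had their own balances. Glu-CTC-1 held 99.1% to 99.6% of the Glu-CTC reads, and its balance was that of the family. Glu-CTC-2 held 0.399% to 0.895% of them, 1279 to 2866 reads, and was more 5′-rich, with a median balance of -0.67. It had more 5′-end than 3′-end reads in 4 of 18 mice, namely the 3 whose libraries stood apart (1.97, 1.43 and 1.69) and WT shCT mouse 11 (0.36). In the 3 libraries the 5′-end reads were 65.3% to 79.7% of the Glu-CTC-2 reads, against a median of 21.7% in the other 15, all of them lower than in the 3. The direction was thus opposite to that of Glu-TTC, which was poorest in 5′-end reads in the same libraries. Glu-CTC-5 was read 0 to 36 times in a library, only as 5′-end reads and in 14 of 18 mice. Its 3′-end reads were 0 in 18 of 18 libraries, which allows up to 3 reads in each, and the table lists no pre-tRNA locus for it.

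Glu-TTC-1, TTC-2 and TTC-3 shared the Glu-TTC reads more evenly, with medians of 41.0%, 32.5% and 23.6%. Their balances were ordered in the same way in 18 of 18 mice, with TTC-1 (median -3.04) above TTC-2 (-4.08) and TTC-2 above TTC-3 (-8.94). Glu-TTC-3 was recovered almost wholly from its 3′ end, with 96.2% to 99.5% of its reads there and 0.136% to 0.426% from the 5′ end. The balances of TTC-1 and TTC-2 were lowest in the 3 libraries that stood apart (-5.46 to -4.90 and -6.69 to -6.29), whereas that of TTC-3 there, -8.94 to -8.62, lay within the range of the other mice (-9.51 to -7.83). The internal reads of TTC-1 and TTC-2 were nearly equal in number in every mouse, while their 5′-end and 3′-end reads differed. Whether the same internal reads were counted for both was not tested.

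**Figure D4:**
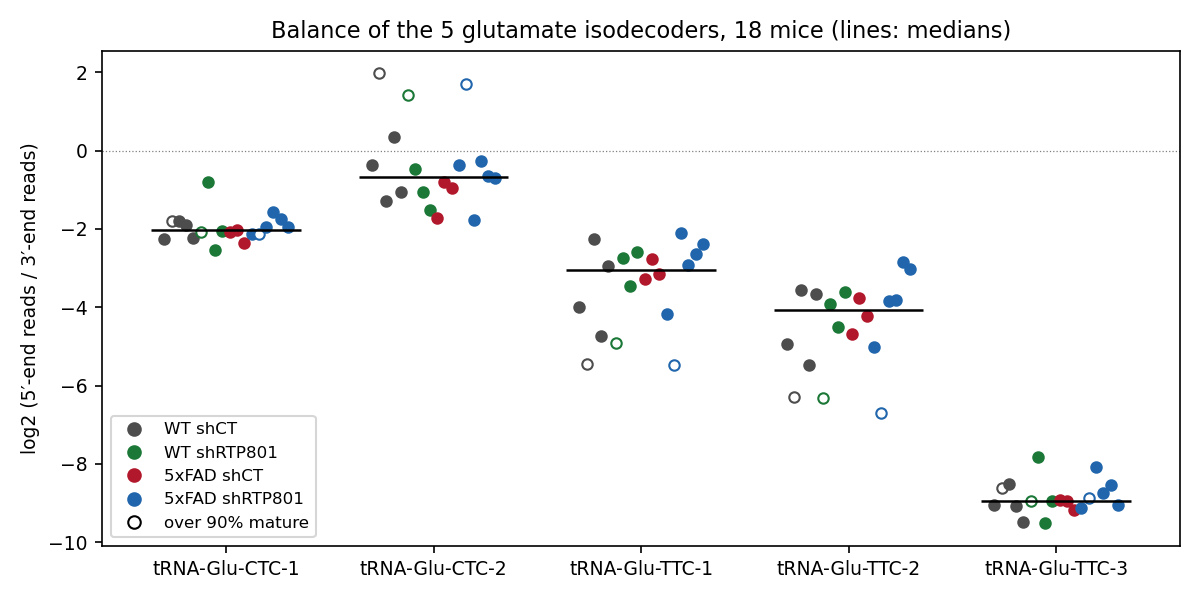
Balance (log2 of 5′-end over 3′-end reads) of the 5 glutamate isodecoders with both read types, 1 point for each of 18 mice coloured by group, open for the libraries of over 90% mature tRNA reads, with lines at the medians. Glu-CTC-2 lies highest (median -0.67) and above 0 in 4 mice, and Glu-TTC-3 lies lowest (-8.94).

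No difference in the balance of a glutamate isodecoder passed the test between groups. In the limma fit over 183 isodecoders, 5 of the 6 glutamate members were tested (Glu-CTC-5 had too few reads), and 0 of 183 (0%) were called in each comparison. At an unadjusted p under 0.05 there were 3.28%, 2.19%, 4.92%, 2.19% and 7.1% of the 183, and none of the 5. For 5xFAD shCT minus WT shCT the largest glutamate difference was that of Glu-CTC-2, -1.09 ± 0.83 (SE; interval -2.83 to 0.66; limma adjusted p = 0.663). The 24 mature entries were also tested one by one as a percentage of the mature reads. Of these, 18 passed the filter of a mean of 0.001%, and the 6 left out were the 4 entries of Glu-CTC-5 and the full-length reads of Glu-CTC-2 and Glu-TTC-3. In 5xFAD shCT against WT shCT mice, 13 of the 18 were higher and 5 lower, with a median log2 difference of 0.25, and the median over all 364 entries tested was 0.40. None was called (0% of all entries in any comparison). At an unadjusted p under 0.05 there were 5.77%, 0.824%, 8.24%, 1.65% and 9.62% of all entries in the 5 comparisons, and 0 of the 18. The lowest unadjusted p of a glutamate entry was that of the 3′-end reads of Glu-CTC-2 after silencing in 5xFAD mice, with a log2 difference of -0.78 ± 0.39 (SE; limma adjusted p = 0.941).

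No difference between groups in the glutamate family shares of the mature reads passed the test either. The log2 difference of Glu-CTC for 5xFAD shCT minus WT shCT was 0.35 ± 0.30 (SE; interval -0.29 to 0.99; limma adjusted p = 0.626), and its log2 difference for 5xFAD shRTP801 minus 5xFAD shCT was -0.50 ± 0.29 (SE; interval -1.12 to 0.13; limma adjusted p = 0.949). Glu-TTC differed by -0.06 ± 0.35 (SE) and -0.24 ± 0.34 (SE) in the same comparisons (limma adjusted p = 0.915 and 0.949). Silencing in WT mice was accompanied by log2 differences of 0.23 ± 0.28 (SE) for Glu-CTC and 0.02 ± 0.32 (SE) for Glu-TTC (limma adjusted p = 0.813 and 0.991), and the genotypes under shRTP801 differed by -0.37 ± 0.27 (SE) and -0.33 ± 0.31 (SE; limma adjusted p = 0.858 for both). The interaction was -0.72 ± 0.41 (SE) for Glu-CTC (limma adjusted p = 0.411) and -0.26 ± 0.46 (SE) for Glu-TTC (limma adjusted p = 0.773). Without 5xFAD shCT mouse 18, the mouse with the highest share, the Glu-CTC differences were 0.021 (5xFAD shCT minus WT shCT) and -0.17 (silencing in 5xFAD mice), and the interaction was -0.39. The medians over all 49 families in the first, second and last of these comparisons were 0.23, -0.17 and -0.26, and 0 of 49 families (0%) were called in any of the 5, with limma or with edgeR on the recovered reads. At an unadjusted p under 0.05, limma had 4.08%, 2.04%, 12.2%, 0% and 8.16% of the families in the 5 comparisons and neither glutamate family. By the exact permutation test, the lowest p of a mature share was 0.0833, for Glu-CTC in 5xFAD shRTP801 against 5xFAD shCT mice (adjusted p = 0.929).

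The Glu-CTC share moved with the make-up of the library. Over the 15 libraries of at most 90% mature reads, it was lower where mature tRNA took more of the reads (Pearson r = -0.65, permutation p = 0.00683, adjusted p = 0.0274; Spearman rho = -0.62, permutation p = 0.0162, adjusted p = 0.0486). Without the 2 libraries farthest from the median in mature share, r was -0.67. Glu-TTC had r = -0.48 (permutation p = 0.0705, adjusted p = 0.141; rho = -0.54, permutation p = 0.0385, adjusted p = 0.0771), and -0.61 without the 2 farthest. The balances had r = 0.26 for Glu-CTC and -0.14 for Glu-TTC (permutation p = 0.370 and 0.617, adjusted p = 0.555 and 0.622; rho = 0.49 and 0.0036, permutation p = 0.0687 and 0.995), and r = 0.16 and 0.12 without the 2 farthest. The 6 relations were adjusted together, the mature reads enter both axes of the shares, and no group held enough mice for a value of its own. The 5xFAD shCT libraries held 39.1% to 52.9% of mature reads and the WT shCT libraries 31.9% to 98.7%, and the part of this in the comparisons of shares was not tested beyond the fit with the mature share as a covariate.

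**Figure D5:**
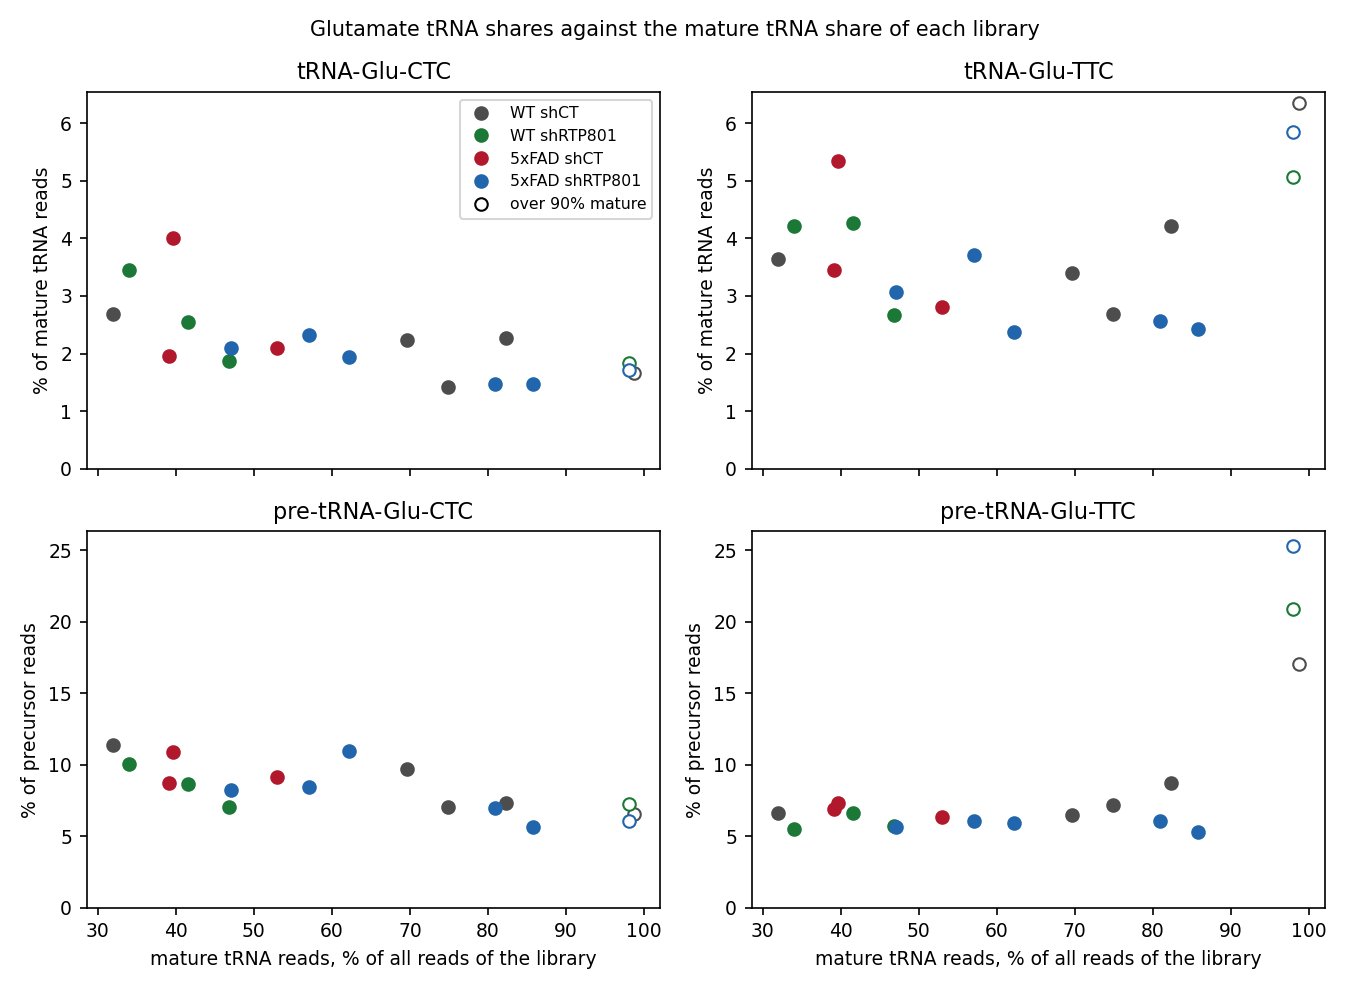
Share of tRNA-Glu-CTC (left) and tRNA-Glu-TTC (right) in the mature tRNA reads (top) and in the precursor reads (bottom) of each mouse against the percentage of mature tRNA reads in its library, coloured by group and open above 90%. The Glu-CTC shares fall to the right over the 15 filled points (r = -0.65 for the mature and for the precursor reads), and the precursor share of Glu-TTC is 17.0% to 25.3% in the 3 open points against 5.28% to 8.74% elsewhere.

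The precursor reads of glutamate tRNAs were few beside the mature ones. The 10 Glu-CTC loci held 3585 to 19298 precursor reads in a library and the 8 Glu-TTC loci 2904 to 80654, nearly all of them partial precursor reads. Whole precursors accounted for at most 58 reads of a family in a library and trailers, the pieces cut from the 3′ end, for at most 3. In the 15 libraries of at most 90% mature reads, there were 19.5 ± 2.34 (SD) precursor reads for every 1000 mature Glu-CTC reads and 9.74 ± 2.11 (SD) for Glu-TTC. In the 3 that stood apart, these were 46.1, 39.9 and 61.2 for Glu-CTC and 31.3, 41.6 and 74.5 for Glu-TTC. The Glu-CTC numbers include the identical counts of CTC-1-1, CTC-1-2 and CTC-1-3. With near-identical entries counted once, the 15 libraries had 12.8 ± 1.48 (SD) precursor reads for every 1000 mature Glu-CTC reads and 10.1 ± 2.20 (SD) for Glu-TTC. Glu-CTC had more precursor reads than Glu-TTC in 13 of 18 mice as deposited and in 3 of 18 when counted once.

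As a share of all precursor reads, Glu-CTC made up 9.72%, 6.59%, 7.03%, 7.35% and 11.4% in WT shCT mice 3, 5, 6, 11 and 15 and 7.27%, 7.05%, 8.62% and 10.1% in WT shRTP801 mice 4, 10, 17 and 21. In the 5xFAD shCT mice it was 9.16%, 8.71% and 10.9%, and in the 5xFAD shRTP801 mice 5.66% to 10.9% (median 7.58%). These groups overlapped. The Glu-TTC share was 6.51%, 17.0%, 7.19%, 8.74% and 6.63% in the WT shCT mice, 20.9%, 5.71%, 6.63% and 5.53% in the WT shRTP801 mice, 6.37%, 6.91% and 7.31% in the 5xFAD shCT mice and 5.28% to 25.3% (median 5.97%) in the 5xFAD shRTP801 mice. The values above 10% were those of the 3 libraries that stood apart, and the other 15 lay between 5.28% and 8.74%. Counted once, the Glu-CTC share had a median of 5.92% over the 18 mice (range 3.69% to 8.04%) and the Glu-TTC share one of 7.12% (range 5.68% to 26.5%). The Wilson 95% intervals of the precursor shares reached at most 0.285 percentage points to either side.

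No precursor family share passed the limma test (0 of 48, 0%, in each comparison). At an unadjusted p under 0.05 there were 12.5%, 4.17%, 4.17%, 6.25% and 20.8% of the 48 families, and neither glutamate family. For 5xFAD shCT minus WT shCT mice the log2 difference was 0.21 ± 0.28 (SE) for Glu-CTC and -0.32 ± 0.53 (SE) for Glu-TTC (limma adjusted p = 0.627 and 0.711). For silencing it was -0.34 ± 0.27 (SE) and 0.11 ± 0.51 (SE) in 5xFAD mice (limma adjusted p = 0.568 and 0.867) and -0.01 ± 0.26 (SE) and -0.08 ± 0.49 (SE) in WT mice (limma adjusted p = 0.967 and 0.956). Between the genotypes under shRTP801 it was -0.12 ± 0.25 (SE) and -0.14 ± 0.47 (SE; limma adjusted p = 0.966 for both), and the interaction was -0.33 ± 0.37 (SE) and 0.19 ± 0.71 (SE; limma adjusted p = 0.529 and 0.884). Without the 3 libraries, the Glu-TTC precursor share had a log2 difference of -0.24 for silencing in 5xFAD mice (limma adjusted p = 0.531). It was 0.11 with them, so that the sign depended on 5xFAD shRTP801 mouse 7. Each of the 5 5xFAD shRTP801 mice left then lay below each of the 3 5xFAD shCT mice. Groups of this size cannot reach a lower value (exact permutation p = 0.0179, adjusted p = 0.429 over 24 tests). How many of the 48 families had their mice apart in this way was not counted, and the 3 libraries were set aside after seeing the data. Over the same 15 libraries, the Glu-CTC precursor share was lower where mature tRNA took more of the reads (r = -0.65, permutation p = 0.00913, adjusted p = 0.0274; rho = -0.66, permutation p = 0.00885, adjusted p = 0.0486; r = -0.50 without the 2 farthest libraries), and that of Glu-TTC had r = 0.15 (permutation p = 0.622, adjusted p = 0.622; rho = -0.05, permutation p = 0.853, adjusted p = 0.995; r = 0.018 without the 2 farthest).

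All 18 loci had reads in every library. Among the Glu-TTC loci, TTC-1-4 and TTC-2-2 held the most. TTC-1-4 gave a median of 39.3% of the Glu-TTC precursor reads in the 15 libraries of at most 90% mature reads (range 14.6% to 60.5%) and TTC-2-2 23.9% (at most 44.4%). In the 3 libraries that stood apart the order was turned. TTC-2-2 held 44.4%, 56.4% and 60.5% there, and TTC-1-4 13.3%, 7.20% and 6.12%. As a share of all precursor reads, TTC-2-2 was 7.55%, 11.8% and 15.3% in these libraries and 1.02% to 2.91% in the others, and it was the largest of all 18 glutamate loci in 6 of 18 mice. TTC-3-1 and TTC-3-2 were the smallest Glu-TTC loci, with 20 to 1645 and 19 to 1520 reads, and their counts were close to each other in every library.

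Among the Glu-CTC loci, CTC-1-1, CTC-1-2 and CTC-1-3 held the same counts in each library (median 17.5% of the Glu-CTC precursor reads each) and could not be told apart. CTC-1-6 followed with 15.7% (range 7.14% to 22.7%) in the 15 libraries of at most 90% mature reads and 5.73% to 7.75% in the 3 that stood apart. CTC-1-7 held a median of 10.9%, and CTC-1-4, CTC-1-5, CTC-1-8 and CTC-1-9 between 4.80% and 5.46%. The only locus of the minor isodecoder, CTC-2-1, had 3 to 26 reads in a library (median 9.5).

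None of the 18 loci was called, as was none of all 333 (0%), and in 5xFAD shCT against WT shCT mice 1 of 18 had an unadjusted p under 0.05 where 15.6% of all 333 loci had one. This was CTC-2-1. It held 0.00896%, 0.00832%, 0.00547%, 0.00689% and 0.0104% of the precursor reads in WT shCT mice 3, 5, 6, 11 and 15 and 0.0165%, 0.0236% and 0.0261% in 5xFAD shCT mice 1, 16 and 18, which rest on 3 to 19 and 10 to 18 reads. The locus was singled out by its unadjusted p, and overlap between these groups was not counted over all 333 loci. Its log2 difference was 1.36 ± 0.52 (SE; interval 0.28 to 2.44; limma adjusted p = 0.313). With the mature share of the library as a covariate it was 0.78 (adjusted p = 0.862). In WT shRTP801 mice 4, 10, 17 and 21 the share was 0.00390%, 0.0157%, 0.0195% and 0.0296%, and in 5xFAD shRTP801 mice 0.00731% to 0.0208% (median 0.0113%). For the interaction, 2 of the 18 loci had an unadjusted p under 0.05 and so had 15.3% of all loci. They were CTC-2-1 (-1.63 ± 0.69, SE; limma adjusted p = 0.286) and CTC-1-8 (-1.42 ± 0.63, SE; limma adjusted p = 0.309). CTC-1-8 held 0.252% to 0.693% of the precursor reads in WT shCT, 0.267% to 0.880% in WT shRTP801, 0.553% to 0.939% in 5xFAD shCT and 0.237% to 0.701% in 5xFAD shRTP801 mice, and all of these ranges overlapped. In the other 3 comparisons 0 of the 18 loci had an unadjusted p under 0.05, against 7.51%, 10.2% and 2.1% of all loci.

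Other families often described for their 5′ fragments were measured in the same way. Of the 7 listed, Val-CAC (median balance -1.30), Gly-GCC (-2.09), His-GTG (-2.50), Asp-GTC (-2.59) and Val-AAC (-2.74) were 5′-richer than Glu-TTC, whereas Gly-CCC (-6.15) and Lys-CTT (-6.31) were more 3′-rich. None of the 7 was called for the balance in any comparison (0 up, 0 down), and 1 had an unadjusted p under 0.05 in each of the 5. Gln-TTG and Lys-TTT, which share the modified uridine at the first anticodon base with Glu-TTC, had balances of -1.66 and -3.36 and were not called either.

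The families whose balance moved most like that of Glu-CTC over all 18 libraries were Gly-GCC, Lys-TTT and Gln-TTG. Over the 15 libraries of at most 90% mature reads, Pearson's r with Glu-CTC was 0.56, 0.64 and 0.57, and Spearman's rho 0.27, 0.56 and 0.65. For Glu-TTC they were Arg-TCT, Val-CAC and Arg-TCG, with r = 0.85, 0.86 and 0.82 and rho = 0.79, 0.84 and 0.75 over the same 15. These values describe families counted in the same libraries, with the same fragmentation and depth, and were picked as the highest.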

How the data were processed

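Per the labels, small RNA of 60 to 100 nucleotides from hippocampus (RNA integrity number of at least 8) was hydrolysed and sequenced from both ends. The authors counted reads per entry with tRAX (genome build mm39 in the submitters' processing notes, version and aligner not given in the sources used here). The deposited values are a signal, counts divided by a size factor of each library. Dividing by the step of a library gave whole reads for 100% of its values (tolerance 0.001) in all 18, and these reads were used. In depths, entries with near-identical counts (within 5%) were counted once only outside the cytosolic tRNAs. Mature and precursor tRNA entries were counted as deposited, and once only where stated.

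Families sum their isodecoders. Shares were tested as log2(percentage + 0.001%) for means of at least 0.001%, and balances as log2 with 1 read added for a mean of at least 100 end reads, with limma 3.58.1 in R 4.3.3 over all features and 18 libraries, with Benjamini-Hochberg adjustment at 0.05. The procedure was tried on simulated counts. The differences planted there were larger than those of the glutamate families, and the make-up of the libraries was not shifted, so that smaller differences were not tried. Family values were also compared by two-sided exact permutation tests, and relations with 100000 permutations (Python 3.11.15, numpy 2.4.6, pandas 2.3.3, scipy 1.17.1, matplotlib 3.10.9). Alternatives were other pseudocounts, no filter, the deposited values, edgeR 4.0.16 on recovered reads, limma-trend, library weights, only the groups compared, a covariate and leaving out each mouse. Setting aside 3 libraries, counting copies once and using the largest isodecoder were added after seeing the data. The members and lists were chosen with earlier results of these data known. The text names both glutamate families with every isodecoder and locus, the 3 families most like each, and the 2 lists of other families. Each library is 1 mouse, and no column of the table was left unused.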

Additional observations from a re-analysis of the deposited data

Results flagged for a closer look

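In 24 checks, each of 1 family value in 1 group of 4 to 6 mice, 4 values lay far from the others by Dixon's criterion at 95%. Chance flags about 1 in 20 independent checks, but these checks shared the same mice, and some values were derived from the same reads. All 4 flagged values came from libraries of over 90% mature tRNA reads. The Glu-TTC share of the precursor reads was 17.0% in WT shCT mouse 5, 20.9% in WT shRTP801 mouse 4 and 25.3% in 5xFAD shRTP801 mouse 7. The log2 of Glu-CTC over Glu-TTC mature reads was -1.78 in 5xFAD shRTP801 mouse 7. No interaction of genotype and silencing passed the test for a glutamate family, and the antisense entries of the glutamate tRNAs held 2 reads in all libraries together.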

How the results depend on the processing

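No glutamate family, isodecoder, entry or locus was called under any alternative, and the lowest adjusted p was 0.0523. Apart from leaving out single mice, alternatives kept 580 values on the same side and with the same sign, turned 42 and moved 8, and none of the turned values passed a threshold. The causes were not tested unless the alternative's construction shows them. Log2 differences follow. Without logs, the Glu-TTC mature share differed by -0.0027 percentage points and its precursor share by 0.470 for silencing in WT mice, and its 5′/3′ ratio by 0.0134 for silencing in 5xFAD mice. Without the 3 libraries, Glu-TTC was 0.11 (mature share, 5xFAD shCT minus WT shCT), and for silencing in 5xFAD mice 0.37 (balance) and -0.24 (precursor share), with an excess of Glu-CTC over Glu-TTC balance of -0.093. Then 4 entries were called for silencing in 5xFAD mice and 2 for the interaction, and 1 family balance for silencing in WT mice and 1 for the interaction. Library weights also called 1 and 1 of these balances, and 1 isodecoder between genotypes under shRTP801 and 14 for the interaction. They gave balances of 0.20 (Glu-TTC, silencing in 5xFAD), 0.056 (Glu-CTC) and -0.0030 (Glu-TTC) between genotypes under shRTP801.

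The deposited counts, which are not shares, gave mature differences for Glu-CTC of -0.42 (5xFAD shCT minus WT shCT), 0.061 (silencing in 5xFAD), -0.24 (silencing in WT) and 0.30 (interaction), and for Glu-TTC of 0.32, -0.45 and 0.76 in the last 3, with Glu-CTC precursors at -0.77, 0.50 and 0.64 (interaction). With the mature share as covariate, 5xFAD shCT minus WT shCT was 0.079 (Glu-TTC mature), -0.052 and 0.27 (Glu-CTC and Glu-TTC precursors) and -0.16 (Glu-TTC balance). Silencing was then -0.53 (5xFAD) and 0.31 (WT) for Glu-TTC precursors and 0.81 and -0.15 for its balance. Between genotypes under shRTP801 Glu-CTC precursors were 0.076. Interactions were 0.13 and -0.84 (precursors) and -0.014 and 0.96 (balances) for Glu-CTC and Glu-TTC. edgeR gave -0.17 (Glu-TTC mature), 0.13 and 0.10 (Glu-CTC and Glu-TTC precursors) for silencing in WT, 0.075 (Glu-TTC precursors) between genotypes under shRTP801 and 0.17 (Glu-TTC mature, interaction). Counting copies once gave 0.069 for Glu-CTC precursors and silencing in WT.

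Leaving out 1 mouse at a time kept 1640 values, turned 62 and moved 8. Glu-CTC mature shares ranged from 0.021 to 0.54 (5xFAD shCT minus WT shCT) and from -0.68 to -0.17 (silencing in 5xFAD), both nearest 0 without 5xFAD shCT mouse 18. For silencing in WT, the ranges were -0.11 to 0.21 (Glu-TTC mature), -0.11 to 0.11 and -0.53 to 0.17 (Glu-CTC and Glu-TTC precursors), -0.24 to 0.35 (Glu-CTC balance, lowest without WT shRTP801 mouse 10), -0.039 to 0.44 (Glu-CTC over Glu-TTC reads) and -0.67 to 0.15 (balance excess). For silencing in 5xFAD, they were -0.45 to 0.019 by the exact test and -0.44 to 0.019 by limma (Glu-TTC mature), -0.24 to 0.21 (its precursors), -0.24 to 0.37 (its balance, highest without 5xFAD shRTP801 mouse 7) and -0.093 to 0.49 (excess). Between genotypes, they were -0.32 to 0.14 with shCT (Glu-TTC mature), and with shRTP801 -0.49 to 0.32 (Glu-TTC precursors), -0.27 to 0.31 and -0.28 to 0.64 (Glu-CTC and Glu-TTC balances), -0.29 to 0.15 (read ratio) and -0.64 to 0.16 (excess). Interactions ran from -0.17 to 0.64 (Glu-TTC precursors), -0.10 to 0.48 (Glu-CTC balance) and -0.90 to 0.0087 (Glu-TTC balance). Calls over all features went from 0 to 1 (entries, interaction, without WT shRTP801 mouse 4), 0 to 2 (precursor families, 5xFAD shCT minus WT shCT, without WT shCT mouse 15), 0 to 1 (loci, the same comparison and silencing in WT, without WT shCT mouse 15), 0 to 8 (loci, interaction, highest without WT shRTP801 mouse 4) and 0 to 1 (family balance, silencing in WT without WT shCT mouse 5, and interaction without WT shRTP801 mouse 4). No paired analysis was possible because the replicate numbers are mouse numbers and no 2 groups share one. With 3 to 6 mice a group and intervals of over 1 log2 unit, moderate differences could not be detected.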
